A study of Sus scrofa with 13 samples.

Results

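Hatched blastocysts of the pig (Sus scrofa) produced by in vitro fertilisation (IVF) were compared with hatched blastocysts that had developed in vivo, across all genes of a messenger RNA sequencing table. The libraries were chosen by their column names: 3 IVF hatched libraries (IVF_HBL-1 to 3) and 2 in vivo hatched libraries, 1 of them named without a number (here the unnumbered library) and the other numbered 2. They are 5 of the 13 libraries of the series, whose others are IVF 4-cell embryos and unhatched blastocysts of both origins. Each library was made from RNA of pooled embryos. The labels leave out breed, parents, embryo sex, day of collection, culture medium, pool size and any batch. Whatever else went with origin, such as embryo age or mothers, and origin itself cannot be told apart in this design. No label says that libraries of a group came from separate animals or rounds, so p-values only measure how far these libraries spread, part of which may be technical.

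A blastocyst is a hollow embryo, and it hatches when it leaves the zona pellucida, the shell of the egg. Its outer layer, the trophectoderm, seals the cavity and later forms the placenta, while the inner cell mass splits into the epiblast, which forms the body, and the hypoblast, a lining epithelium that lays down basement membrane and forms the inner layer of the yolk sac. In the pig the hatched blastocyst stays free in the uterus for days, and its trophectoderm then elongates and secretes oestrogen as a signal of pregnancy.

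The 5 libraries held 35110201 to 38649374 counts, with 15350 to 16228 genes detected in a library. Values below are CPM, counts scaled to library size as adjusted by the TMM factors of edgeR. They are given in this order: in vivo unnumbered and 2, then IVF 1, 2 and 3 (n = 2 and n = 3). A log2 fold change is IVF over in vivo. The ± beside it is an approximate standard error, the absolute log2 fold change divided by the square root of the F statistic of its test. A gene was called at a Benjamini-Hochberg adjusted p under 0.05 in the quasi-likelihood test of edgeR. The 2 in vivo libraries were less alike than the IVF libraries: 11.2% of 5561 well expressed genes differed more than 2-fold between them, against 2.36% to 2.45% of genes in the 3 IVF pairs. Messages of the mitochondrial genome took 1.49% of counts in the unnumbered library and 6.85% in library 2, against 0.885%, 0.606% and 0.982% after IVF. Since a value can rest on in vivo library 2, each of the 5 libraries was left out in turn, and the range of a list's calls is given as the number with 1 library left out. Genes with too few counts were filtered out anew in each of these fits, so the tested members of a list, and its median, could change with them. Calls of single genes that were lost and values that moved by more than 1.5 times in this way are given in the same paragraph as the gene.

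Of 15528 genes tested, 1081 were higher after IVF (6.96% of the genes tested) and 758 were lower (4.88%), so 11.8% were called. At an unadjusted p under 0.05 there were 4278 genes (27.6%). The ranges of the 2 groups did not overlap, with IVF higher, for 3779 genes (24.3%), and with IVF lower for 3395 (21.9%). Genes called higher took 8.35% and 6.67% of the counts of the in vivo libraries and 18.1%, 18.2% and 19.3% of those of the IVF libraries. Genes called lower took 10.9% and 19.4% in vivo and 4.93%, 4.74% and 4.97% after IVF. The median absolute log2 fold change was 1.88 among genes called higher and 1.46 among those called lower, and 488 and 252 of them, respectively, differed more than 4-fold. Without in vivo library 2, 351 genes were higher (2.1% of 16727) and 162 lower (0.968%), and without the unnumbered library 1158 (6.8% of 17034) and 910 (5.34%). Leaving out IVF library 1, 2 or 3 gave 693 and 353, 674 and 398, and 645 and 339 calls. Across these 5 omissions, 287 of the 1081 and 120 of the 758 kept their call every time. A fit that also held the 3 IVF 4-cell libraries called 64 genes higher and 28 lower, and 25 of the 143 called genes named here with values. Over all genes tested the median log2 fold change was 0.04, which is the level against which the medians of gene lists below are given. Counts of calls in these lists stand against the 6.96% called higher and the 4.88% called lower.

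**Figure D1:**
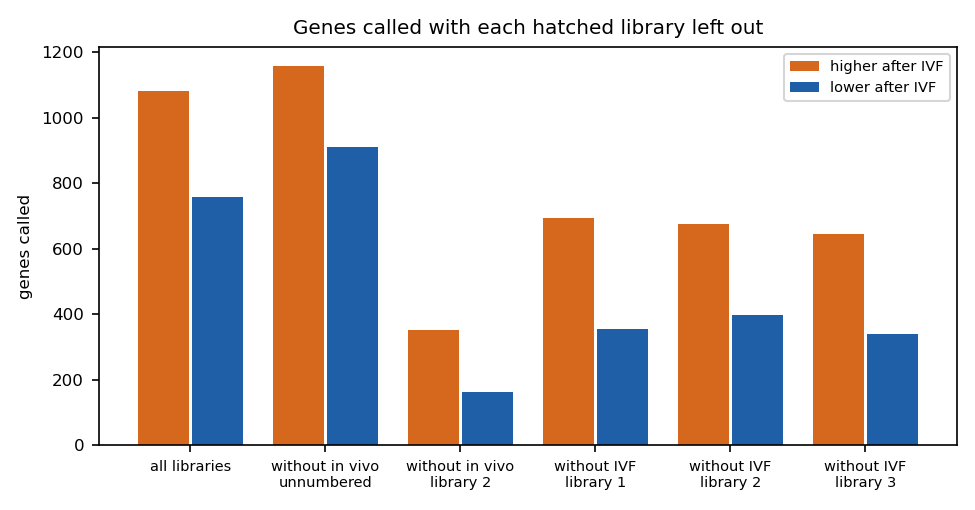
Number of genes called higher (orange) or lower (blue) after IVF in hatched blastocysts (vertical axis) with all libraries and with each of the 5 hatched libraries left out (horizontal axis). The bars fall from 1081 and 758 to 351 and 162 without in vivo library 2, and are at 1158 and 910 without the unnumbered in vivo library.

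**Figure D2:**
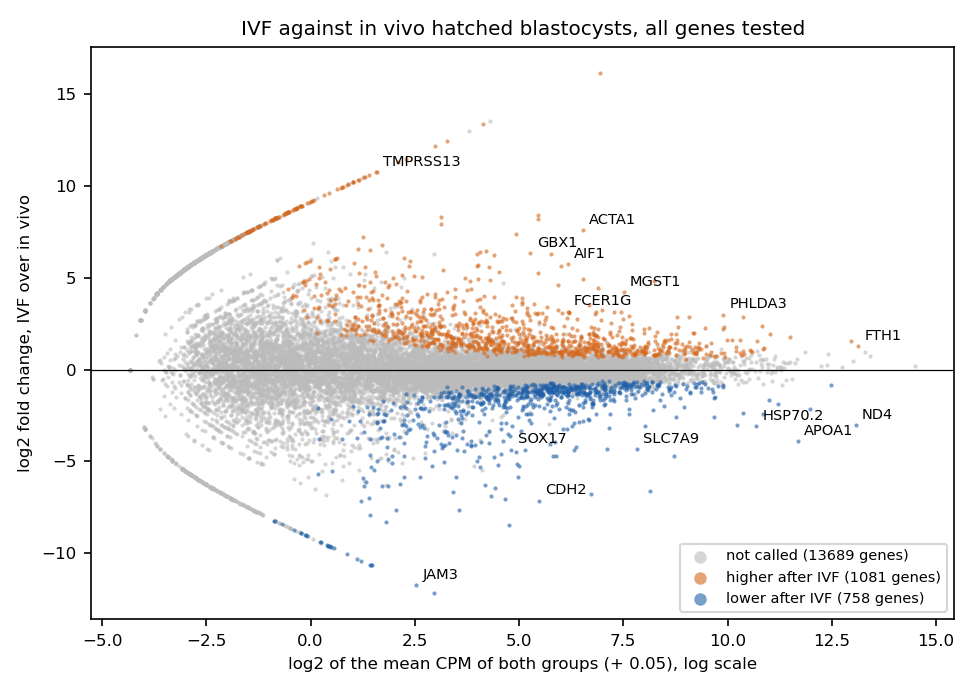
Each point is 1 of 15528 genes, with the log2 of its mean CPM over both groups plus 0.05 on the horizontal axis and the log2 fold change of IVF over in vivo hatched blastocysts on the vertical axis, coloured where called. Curved rows of points at the upper and lower left are genes with 0 counts in 1 group, whose fitted fold changes depend on the small count added by the fit.

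Hypoblast genes were among those that fell after IVF. Of 17 tested members of a list of hypoblast transcription factors, receptors and secreted factors 10 fell (5 to 10 with 1 library left out, fewest without in vivo library 2) and 1 rose, with a median log2 fold change of -4.36, but -2.41 without in vivo library 2. With genes at 0 set to their bound the median was -3.36. Over the same 17 genes the median without in vivo library 2 was -2.60. SOX17, a transcription factor of the hypoblast (gene 100154087, chromosome 4, 76854218 to 76857143 on Sscrofa11.1), had 30.6 and 76.4 CPM in vivo and 5.43, 1.58 and 0.812 CPM after IVF. Both in vivo libraries were above all IVF libraries, and IVF library 1 was nearest to them (log2 fold change -4.36 ± 0.71, adjusted p = 0.0034). PDGFRA, the growth factor receptor by which hypoblast is often recognised (gene 100627123, chromosome 8, 40966568 to 41021440), had 20.2 and 207 CPM in vivo and 5.06, 4.31 and 3.73 CPM after IVF (-4.7 ± 0.70, adjusted p = 0.0021). Its in vivo level came mostly from library 2, without which the log2 fold change was -2.23 (adjusted p = 0.018). GATA4, which acts late in hypoblast formation, had 33.8 and 90.4 CPM in vivo and 19.3, 13.6 and 18.6 CPM after IVF (-1.86 ± 0.35, adjusted p = 0.0076), and leaving out in vivo library 2 ended the call at -0.99 (adjusted p = 0.13). RSPO3, a secreted enhancer of WNT signalling, had 25.2 and 58.8 CPM in vivo and 0.597, 0 and 0.839 CPM after IVF (-6.45 ± 1.14, adjusted p = 0.0053). The activin antagonist FST had 153 and 333 CPM in vivo and 41.1, 38.5 and 55.5 CPM after IVF (-2.43 ± 0.34, adjusted p = 0.0014). The groups did not overlap for any of these genes. GATA6, an early hypoblast factor that trophectoderm also uses, was not called: 98.1 and 180.1 CPM in vivo and 151, 114 and 176 CPM after IVF, with overlapping groups. APELA, a small secreted ligand of the apelin receptor and the member that rose, had 6.26 and 3.12 CPM in vivo and 26.4, 28.2 and 30.2 CPM after IVF (2.59 ± 0.32, adjusted p = 0.00079). In in vivo library 2, 6 of the 7 well expressed members of the list were more than 2-fold above the unnumbered library. Over all genes this held for 396 of 5561 well expressed ones. In pooled embryos, fewer hypoblast cells and less of these messages per cell cannot be told apart.

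Part of the basement membrane genes fell too. Of 27 tested genes for matrix proteins and collagen processing 12 fell (4 to 14 with 1 library left out, fewest without in vivo library 2) and none rose (median -1.21, but -0.70 without in vivo library 2). COL4A2, a chain of the network collagen of basement membranes (gene 100153454, chromosome 11, 76996885 to 77161617), had 18.6 and 39 CPM in vivo and 2.19, 1.77 and 1.0 CPM after IVF (-4.12 ± 0.44, adjusted p = 0.00035). COL18A1, which gives rise to endostatin, had 39.1 and 84.5 CPM in vivo and 1.62, 0.967 and 0.568 CPM after IVF (-5.87 ± 0.71, adjusted p = 0.00064). SERPINH1, the chaperone that folds collagen in the endoplasmic reticulum, had 93.5 and 208 CPM in vivo and 11.3, 5.5 and 4.76 CPM after IVF (-4.4 ± 0.51, adjusted p = 0.00052). For all 3 genes the lower in vivo library was several times above the highest IVF library. Fibronectin, FN1, had 80.1 and 230.3 CPM in vivo and 15.6, 4.53 and 5.03 CPM after IVF (-4.21 ± 0.70, adjusted p = 0.0038). NID1, a linker of laminin and collagen, had 13.7 and 86.1 CPM in vivo and 1.02, 0 and 0.108 CPM after IVF (-7.05 ± 1.63, adjusted p = 0.018). Omitting in vivo library 2 ended the call at -5.19 (adjusted p = 0.2), as did omitting IVF library 2 at -6.48 (adjusted p = 0.052) and IVF library 3 at -6.61 (adjusted p = 0.068). In vivo library 2 was more than 2-fold above the unnumbered library for 12 of 17 well expressed members of the list, against 396 of 5561 over all genes. COL4A2 shares part of its span with COL4A1, and no source used here says whether reads were assigned by strand, so counts of overlapping genes are uncertain. The same holds for JAM3, CYP2C42, CPN1, ENTPD1, HSP70.2, AIF1, SLC7A9, SLC3A1, SLC16A1, MCM7, CYP17A1, TJP3, TIMP3 and the neighbours ND4 and ND4L among the genes named here.

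Among the genes described here for the size of their fall are 3 adhesion molecules. The list of tight and adherens junctions had no lower call of 30, against 4.88% of all genes tested. The 3 genes were picked by their fold, so they cannot be weighed against the calls of that list. CDH2 or N-cadherin, a cell adhesion protein (gene 100515322, chromosome 6, 112396713 to 112629073), had 29.9 and 147 CPM in vivo and 1.68, 0 and 0.217 CPM after IVF (-7.14 ± 1.13, adjusted p = 0.003). IVF library 2 had no count, and the in vivo libraries differed from each other severalfold. CDH17, a cadherin known from intestine, had 1.25 and 29.7 CPM in vivo and no counts after IVF, and was at least 186-fold lower against a floor of 3 counts in each library (adjusted p = 0.013). It was carried by in vivo library 2, without which the call was lost (adjusted p = 0.3). JAM3, a junctional adhesion molecule, had 5.81 and 17.2 CPM and none after IVF (at least 138-fold lower, adjusted p = 0.0093), and without in vivo library 2 its adjusted p was 0.069.

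Some genes for lipid carriers and nutrient uptake fell as well. Of 14 tested carriers and endocytic receptors known from the yolk sac 5 fell (2 to 5 with 1 library left out, fewest without in vivo library 2) and none rose (median -1.51, from -2.56 without IVF library 1 to -0.70 without in vivo library 2). APOA1, the main protein of high density lipoprotein (gene 397691, chromosome 9, 44216481 to 44218360), had 3992 and 8392 CPM in vivo and 743, 259 and 258 CPM after IVF (-3.88 ± 0.68, adjusted p = 0.0052). The groups did not overlap, and IVF library 1 was the highest of its group. APOE had 314 and 612 CPM in vivo and 100.2, 33 and 33.4 CPM after IVF (-3.06 ± 0.48, adjusted p = 0.0029). APOC3 had 47.1 and 90.8 CPM in vivo and 16.8, 5.03 and 5.28 CPM after IVF (-2.93 ± 0.55, adjusted p = 0.0068, and -2.40 (adjusted p = 0.067) without in vivo library 2). SCARB1, a receptor for high density lipoprotein, had 22.7 and 67.6 CPM in vivo and 8.55, 5.8 and 3.46 CPM after IVF (-2.93 ± 0.47, adjusted p = 0.003, and -1.95 (adjusted p = 0.042) without in vivo library 2). Of 19 tested genes for sterol sensing and cholesterol uptake 3 fell (2 to 3 with 1 library left out, fewest without in vivo 2, IVF 1, IVF 2 or IVF 3) and none rose, while of 21 genes of the mevalonate and sterol pathway 2 rose (1 to 3 with 1 library left out, fewest without in vivo library 2) and 1 fell.

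Among 30 amino acid transporters tested 8 fell (2 to 9 with 1 library left out, fewest without in vivo library 2) and 2 rose (median -0.85). SLC7A9 and SLC3A1 are the 2 subunits of the cystine and dibasic amino acid transporter of absorptive epithelia. SLC7A9 (gene 100037973, chromosome 6, 42664795 to 42706113) had 228 and 632 CPM in vivo and 26.9, 23.1 and 13.2 CPM after IVF (-4.35 ± 0.76, adjusted p = 0.0052), with every in vivo library above every IVF library. SLC3A1 had 287 and 689 CPM in vivo and 109, 109 and 100.3 CPM after IVF (-2.2 ± 0.39, adjusted p = 0.0055, lost without in vivo library 2 at -1.45 (adjusted p = 0.068)). SLC6A8, the creatine transporter, had 26.6 and 38.8 CPM in vivo and 7.16, 8.84 and 7.01 CPM after IVF (-2.09 ± 0.30, adjusted p = 0.0017). SLC1A1, a glutamate transporter, had 16.2 and 55 CPM in vivo and 0.455, 0.249 and 0.677 CPM after IVF (-6.26 ± 1.20, adjusted p = 0.008, lost without in vivo library 2 at -5.14 (adjusted p = 0.097)). SLC7A5, the light chain of a transporter of large neutral amino acids, went the other way with 11.2 and 10 CPM in vivo and 26, 32.8 and 32.9 CPM after IVF (1.53 ± 0.30, adjusted p = 0.0093, lost without in vivo library 2 at 1.44 (adjusted p = 0.089)). SLC10A4, of the bile acid carrier family, had 44.1 and 63.4 CPM in vivo and 0.313, 0 and 0.135 CPM after IVF (-8.47 ± 1.34, adjusted p = 0.0029). It was well expressed in both in vivo libraries and nearly absent from the IVF ones.

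Glucose and lactate carriers differed by member. SLC2A1 or GLUT1, the main glucose carrier of many embryonic cells, had 512 and 858 CPM in vivo and 251, 215 and 252 CPM after IVF (-1.52 ± 0.25, adjusted p = 0.0041). The lactate and pyruvate carrier SLC16A1 had 132 and 392 CPM in vivo and 11.9, 6.69 and 21.2 CPM after IVF (-4.31 ± 0.57, adjusted p = 0.0011). SLC2A12, another glucose carrier, was near 1 CPM in vivo and well above it after IVF, with 0.652 and 1.6 CPM in vivo and 48.6, 31.3 and 53.7 CPM after IVF (5.3 ± 0.70, adjusted p = 0.0011). PKM, the last enzyme of glycolysis, had 682 and 862 CPM in vivo and 322, 346 and 332 CPM after IVF (-1.21 ± 0.24, adjusted p = 0.01, lost without in vivo library 2 at -1.05 (adjusted p = 0.08)). In the list of 32 glycolysis enzymes and glucose carriers 5 rose (1 to 3 with 1 library left out, fewest without IVF 1, IVF 2 or IVF 3) and 4 fell (2 to 4 with 1 library left out, fewest without in vivo library 2).

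**Figure D3:**
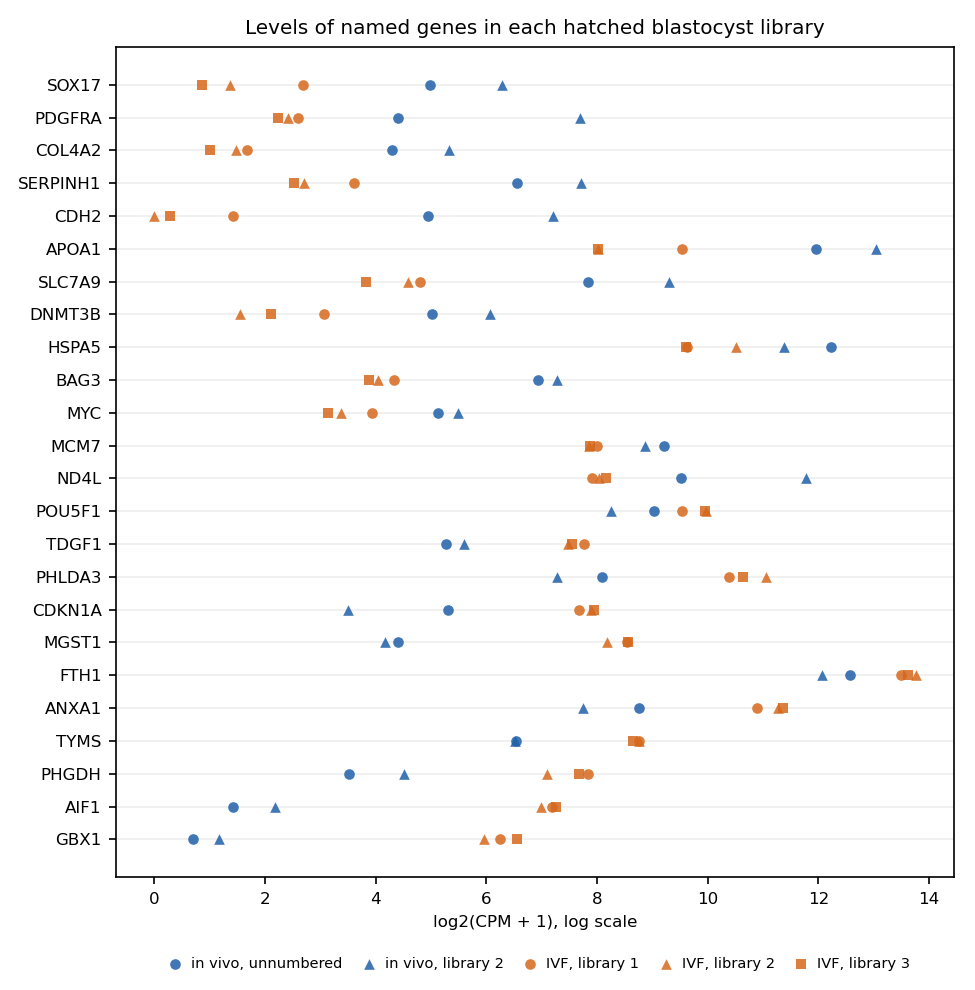
Level of 24 named genes as log2(CPM + 1) on the horizontal axis, 1 row per gene and 1 point per hatched library, with in vivo libraries in blue and IVF libraries in orange. Upper rows, from SOX17 to ND4L, have both in vivo points to the right of all IVF points, and lower rows, from POU5F1 to GBX1, have them to the left.

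Epiblast and pluripotency genes moved in both directions: of 31 tested 4 rose (2 to 3 with 1 library left out, fewest without in vivo 2, IVF 2 or IVF 3) and 4 fell (2 to 5 with 1 library left out, fewest without in vivo 2 or IVF 2), with a median of -0.73. By sign most of the list was lower: 25 log2 fold changes were negative and 6 positive. The ranges of the groups lay apart for 16 genes with IVF lower and 4 with IVF higher. With DESeq2, another test for counts, 4 were called higher and 11 lower. POU5F1 or OCT4, the central pluripotency factor, which pig trophectoderm also expresses at this age, had 525 and 305 CPM in vivo and 742, 999.6 and 991 CPM after IVF (1.13 ± 0.28, adjusted p = 0.024). The groups did not overlap, but the call was lost without in vivo library 2 at 0.78 (adjusted p = 0.2), without IVF library 2 at 1.04 (adjusted p = 0.069) and without IVF library 3 at 1.07 (adjusted p = 0.071). TDGF1, the coreceptor of the growth factor NODAL, had 37.7 and 47.4 CPM in vivo and 217, 178 and 187 CPM after IVF (2.19 ± 0.31, adjusted p = 0.0017). DPPA5, an RNA-binding protein of pluripotent cells, had 4.96 and 3.24 CPM in vivo and 23.6, 24.9 and 18.5 CPM after IVF (2.45 ± 0.31, adjusted p = 0.00088). DNMT3B, the enzyme that methylates DNA anew (gene 100302109, chromosome 17, 36345715 to 36386076), had 31.5 and 66.2 CPM in vivo and 7.42, 1.93 and 3.33 CPM after IVF (-3.53 ± 0.54, adjusted p = 0.0024). The homeobox factor OTX2 had 88.7 and 236 CPM in vivo and 24.2, 30.2 and 16.2 CPM after IVF (-2.78 ± 0.46, adjusted p = 0.0037). In vivo libraries were above all IVF libraries for these last 2 genes. NANOG, a second core pluripotency factor, had 6.21 and 7.6 CPM in vivo and 0.227, 0.47 and 0 CPM after IVF in its row on chromosome 5 (-4.88 ± 1.36, adjusted p = 0.039). Another gene number carries the same symbol, and the call was lost with any 1 of the 5 libraries left out, so its values are uncertain. The log2 fold change was then -5.92 to -4.29. The other NANOG row was not called in the main fit (-4.98, adjusted p = 0.066). It was called lower with DESeq2 (adjusted p = 0.011) and by edgeR on the 5 hatched libraries alone (adjusted p = 0.032) or without the low-count filter (adjusted p = 0.0017). SOX2 had 6.69 and 4.21 CPM in vivo and 0.511, 0.995 and 0.866 CPM after IVF and was not called (adjusted p = 0.15), although the groups did not overlap. SOX2 was called lower by edgeR on the 5 hatched libraries alone (adjusted p = 0.014) and without the low-count filter (adjusted p = 0.0068).

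Transcription factors of the trophectoderm mostly did not pass the test. Of 28 tested 2 rose (0 to 2 with 1 library left out, fewest without in vivo library 2) and 2 fell (median 0.19, from 0.02 without in vivo library 2 to 0.48 without the unnumbered library), near the background shares. GATA2 had 151 and 139 CPM in vivo and 184, 134 and 202 CPM after IVF, GATA3 67.4 and 42 CPM in vivo and 98, 67 and 55.3 CPM after IVF and CDX2, which keeps trophectoderm identity, 40.9 and 19.5 CPM in vivo and 45.8, 27.1 and 28.4 CPM after IVF. The ranges overlapped for each of them (adjusted p of 0.59, 0.42 and 0.85). The 2 that rose were MSX2, a homeobox factor (102 and 80.9 CPM in vivo and 234, 189 and 194 CPM after IVF, 1.17 ± 0.24, adjusted p = 0.011), and VGLL1, a cofactor of the TEAD factors that drive trophectoderm genes (32.6 and 14.6 CPM in vivo and 63.9, 126 and 62.7 CPM after IVF, 1.84 ± 0.48, adjusted p = 0.03). Both lost their call without in vivo library 2 (MSX2 at 0.99 (adjusted p = 0.1), VGLL1 at 1.36 (adjusted p = 0.24)), VGLL1 also without IVF library 2 at 1.40 (adjusted p = 0.091). ID1, an inhibitor of differentiation induced by BMP, had 30.4 and 32.8 CPM in vivo and 3.35, 1.22 and 1.52 CPM after IVF (-3.96 ± 0.78, adjusted p = 0.0092). WWTR1 or TAZ, a partner of YAP, had 51.4 and 69.9 CPM in vivo and 25.7, 22.7 and 26.3 CPM after IVF (-1.29 ± 0.28, adjusted p = 0.015, lost without in vivo library 2 at -1.06 (adjusted p = 0.13)). Tight and adherens junction genes had 2 higher calls of 30 (1 to 2 with 1 library left out, fewest without IVF 1, IVF 2 or IVF 3), of which TJP3, a scaffold of tight junctions, had 34.7 and 35.5 CPM in vivo and 116, 100.1 and 157 CPM after IVF (1.83 ± 0.27, adjusted p = 0.002). Keratins and desmosome genes had 1 higher call of 18. The higher calls were 6.67% of the junction genes and 5.56% of the keratins and desmosome genes, against 6.96% of all genes tested.

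Some secretory products and steroid enzymes of the pig trophoblast had counts only after IVF. Among 17 genes of steroid and oestrogen synthesis 5 rose (0 to 4 with 1 library left out, fewest without in vivo library 2) and 1 fell (median 1.01, but 0.64 without in vivo library 2). CYP17A1, the enzyme that leads from progestogens to androgens, had no counts in vivo and 2.98, 2.43 and 2.49 CPM after IVF (at least 33-fold higher, adjusted p = 0.024). CYP19A3, an aromatase that makes oestrogen, had no counts in vivo and 0.426, 2.96 and 1.41 CPM after IVF (at least 20-fold higher, adjusted p = 0.029). Both calls were lost without either in vivo library, at adjusted p of 0.15 and 0.17 without library 2 and 0.069 and 0.082 without the unnumbered one. Leaving out IVF libraries also ended them, for CYP17A1 library 1 (adjusted p = 0.051) and for CYP19A3 library 2 (adjusted p = 0.063) or 3 (adjusted p = 0.057). Pregnancy-associated glycoproteins are a large family of aspartic protease relatives secreted by trophoblast, and near-identical copies make the counts of single members uncertain. PPAG3 had 0.312 and 0.399 CPM in vivo and 71, 30.4 and 79.9 CPM after IVF (7.39 ± 1.04, adjusted p = 0.0015), and PAG6 no counts in vivo and 4.6, 4.09 and 5.79 CPM after IVF (at least 60.4-fold higher, adjusted p = 0.0079; adjusted p = 0.067 without in vivo library 2). PAG1, listed with PAG6 among conceptus signals, was called lower after IVF, and its values are not reported here. PTGR2, which breaks down prostaglandins, had 79.8 and 59.2 CPM in vivo and 182, 178 and 180.4 CPM after IVF (1.37 ± 0.21, adjusted p = 0.0023).

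Genes of antioxidant defence were called higher more often than lower. Of 34 tested targets of the transcription factor NRF2 and genes of glutathione synthesis 14 rose (8 to 15 with 1 library left out, fewest without in vivo library 2) and 1 fell (median 0.94). MGST1, a membrane-bound glutathione transferase (gene 397567, chromosome 5, 56259566 to 56283823), had 20.2 and 17.1 CPM in vivo and 370.2, 289 and 376 CPM after IVF. Each IVF library was more than 10 times either in vivo library (log2 fold change 4.21 ± 0.24, adjusted p = 9.6e-06). NQO1, a quinone reductase often used to read NRF2 activity, had 0.822 and 0.773 CPM in vivo and 32.6, 21.9 and 20.8 CPM after IVF (4.97 ± 0.65, adjusted p = 0.0011). GSTA4, a transferase for products of lipid peroxidation, had 9.89 and 8.47 CPM in vivo and 86, 99.8 and 49.2 CPM after IVF (3.09 ± 0.36, adjusted p = 0.00052). GSS, which completes glutathione, had 187 and 166 CPM in vivo and 465, 647 and 526 CPM after IVF (1.63 ± 0.22, adjusted p = 0.0012). The 2 chains of the iron store ferritin were among the most abundant messages called. FTL had 4498 and 3439 CPM in vivo and 13536, 9648 and 12428 CPM after IVF (1.58 ± 0.24, adjusted p = 0.0022). FTH1 had 6077 and 4282 CPM in vivo and 11601, 13996 and 12569.7 CPM after IVF (1.3 ± 0.26, adjusted p = 0.0095, lost without in vivo library 2 at 1.05 (adjusted p = 0.078)). Ferritins have many copies in mammalian genomes, so their counts may include reads of pseudogenes. Of 22 enzymes that remove peroxide and superoxide 7 rose (1 to 7 with 1 library left out, fewest without in vivo library 2) and 1 fell (median 0.65, but 0.27 without in vivo library 2). The mitochondrial peroxiredoxin PRDX3 had 622 and 464 CPM in vivo and 1747, 1681 and 1543 CPM after IVF (1.61 ± 0.25, adjusted p = 0.0024). The glutathione peroxidases GPX4 and GPX1 had 101 and 61.4 CPM in vivo and 207, 195 and 207 CPM after IVF (1.32 ± 0.24, adjusted p = 0.0057) and 70.8 and 60.5 CPM in vivo and 167, 183 and 146 CPM after IVF (1.33 ± 0.26, adjusted p = 0.0081). Without in vivo library 2 both peroxidases lost their call, at 1.0 (adjusted p = 0.051) and 1.21 (adjusted p = 0.078).

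Genes induced by DNA damage and other stress were also called higher more often than lower. Of 34 tested 13 rose (9 to 16 with 1 library left out, fewest without in vivo library 2) and 1 fell (median 1.04). CDKN1A or p21, which halts the cell cycle (gene 100152215, chromosome 7, 32354776 to 32363771), had 38.5 and 10.3 CPM in vivo and 203, 238 and 245 CPM after IVF (3.23 ± 0.46, adjusted p = 0.0016). PHLDA3, a repressor of AKT signalling, had 271 and 153 CPM in vivo and 1339.6, 2124 and 1601 CPM after IVF (2.99 ± 0.30, adjusted p = 0.00023). ZMAT3, an RNA-binding protein, had 17.8 and 29.5 CPM in vivo and 203, 217 and 196 CPM after IVF (3.12 ± 0.33, adjusted p = 0.00035). Cyclin G1, CCNG1, had 906 and 811 CPM in vivo and 2875, 3439.7 and 3626 CPM after IVF (1.95 ± 0.21, adjusted p = 0.00038). All IVF libraries were above both in vivo libraries for these 4 genes, and for the first 2 the unnumbered library was the higher of the in vivo pair. Among 27 apoptosis regulators 6 rose (2 to 4 with 1 library left out, fewest without in vivo 2 or IVF 1) and 1 fell: the survival gene BCL2L1 had 13.1 and 15.7 CPM in vivo and 42.8, 43.7 and 40.8 CPM after IVF (1.56 ± 0.25, adjusted p = 0.0029). The initiator caspase CASP8 had 4.05 and 7.5 CPM in vivo and 22.3, 25 and 21.7 CPM after IVF (1.99 ± 0.41, adjusted p = 0.011, lost without the unnumbered library at 1.62 (adjusted p = 0.053)), and the short-lived survival factor MCL1 214 and 198 CPM in vivo and 116, 85.9 and 108 CPM after IVF (-1.0 ± 0.20, adjusted p = 0.0098).

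One-carbon metabolism had 6 higher calls (4 to 7 with 1 library left out, fewest without in vivo 2, IVF 1, IVF 2 or IVF 3) and 1 lower of 30 tested (median 0.24, from 0.09 without IVF library 1 to 0.40 without the unnumbered library). TYMS, which makes thymidylate for DNA (gene 100627209, chromosome 6, 105642730 to 105660279), had 91.5 and 90.2 CPM in vivo and 431, 434 and 399 CPM after IVF, a tight spread in both groups (log2 fold change 2.21 ± 0.18, adjusted p = 0.00012). PHGDH, the entry enzyme of serine synthesis, had 10.5 and 21.9 CPM in vivo and 229, 137 and 203 CPM after IVF (3.55 ± 0.47, adjusted p = 0.0012). The cystathionine enzyme CTH had 377 and 268 CPM in vivo and 1328, 1658 and 1816 CPM after IVF (2.31 ± 0.26, adjusted p = 0.00048). The folate carrier SLC19A1 had 10.5 and 9.2 CPM in vivo and 83.8, 80.9 and 88.4 CPM after IVF (3.09 ± 0.36, adjusted p = 0.00052). IVF and in vivo libraries did not overlap for any of them. The integrated stress response list, which also holds PHGDH, CTH and SLC7A5, had 5 higher (3 to 7 with 1 library left out, fewest without in vivo 2, IVF 1, IVF 2 or IVF 3) and 3 lower calls (0 to 3 with 1 library left out, fewest without IVF 1 or IVF 3) of 34. Its median was -0.16, from -0.30 without in vivo library 2 to 0.51 without the unnumbered library.

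Of the lysosome, where cells break down proteins, lipids and sugars, 16 of 40 tested genes rose (10 to 15 with 1 library left out, fewest without in vivo library 2) and none fell (median 0.87). ARSA, a sulfatase (gene 396973, chromosome 5, 107103 to 110330), had 16.4 and 18.8 CPM in vivo and 102, 129 and 144 CPM after IVF (2.83 ± 0.28, adjusted p = 0.00023). GUSB, a glucuronidase, had 9.27 and 6.56 CPM in vivo and 59.3, 61.8 and 73.1 CPM after IVF (3.03 ± 0.41, adjusted p = 0.0013). The galactosidase GLB1 had 969 and 712 CPM in vivo and 2036, 2208 and 3243 CPM after IVF (1.57 ± 0.27, adjusted p = 0.0044). These enzymes were higher in every IVF library than in either in vivo library. HEXA, a subunit of hexosaminidase, had 1447 and 885 CPM in vivo and 2581, 2422 and 2615 CPM after IVF (1.12 ± 0.26, adjusted p = 0.02). Omitting in vivo library 2 ended the call at 0.80 (adjusted p = 0.16), as did omitting IVF library 1 at 1.11 (adjusted p = 0.053) and IVF library 3 at 1.10 (adjusted p = 0.057). The cysteine protease CTSF had 12.9 and 13.6 CPM in vivo and 49.6, 48.2 and 66.3 CPM after IVF (2.04 ± 0.28, adjusted p = 0.0015). Of 27 autophagy genes 5 rose (2 to 7 with 1 library left out, fewest without in vivo library 2) and 1 fell. GABARAP, which decorates autophagosomes, had 170.3 and 104 CPM in vivo and 511, 474 and 452 CPM after IVF (1.81 ± 0.24, adjusted p = 0.0011). The autophagy receptor OPTN had 22.4 and 25.6 CPM in vivo and 61.1, 72.9 and 94.8 CPM after IVF (1.67 ± 0.23, adjusted p = 0.0015).

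Proteases and inhibitors that have been studied in hatching had 10 higher (3 to 11 with 1 library left out, fewest without in vivo library 2) and 3 lower calls (0 to 2 with 1 library left out, fewest without in vivo 2, IVF 2 or IVF 3) of 37 (median 0.49). TMPRSS13, a membrane serine protease, had no counts in vivo and 6.22, 2.13 and 9.23 CPM after IVF (at least 73.3-fold higher, adjusted p = 0.0017). TIMP3, an inhibitor of metalloproteases, had 72.6 and 65.7 CPM in vivo and 207, 318 and 246 CPM after IVF (1.89 ± 0.27, adjusted p = 0.0016). CST6, an inhibitor of cathepsins, had 140.2 and 65.4 CPM in vivo and 445, 328 and 448 CPM after IVF (1.98 ± 0.35, adjusted p = 0.0051). Proteases and their inhibitors were thus both among the genes that rose.

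Annexins and S100 proteins, calcium-binding proteins at membranes, had 9 higher calls of 25 (4 to 8 with 1 library left out, fewest without in vivo library 2) and no lower one (median 0.98, but 1.95 without the unnumbered library). ANXA1 (gene 396942, chromosome 1, 226414200 to 226431963) had 431 and 215 CPM in vivo and 1898, 2483 and 2631 CPM after IVF (2.86 ± 0.33, adjusted p = 0.00051). ANXA2 had 1499 and 1102 CPM in vivo and 4865, 4806 and 3892 CPM after IVF (1.8 ± 0.21, adjusted p = 0.0006) and S100A11 197 and 101 CPM in vivo and 703, 829 and 724 CPM after IVF (2.34 ± 0.29, adjusted p = 0.00074). In each case the unnumbered library was the higher in vivo library and stayed below all IVF libraries. Contractile genes had 7 higher (5 to 7 with 1 library left out, fewest without in vivo 2 or IVF 3) and 1 lower call of 34 (median 0.70, but 0.46 without in vivo library 2 and 0.39 without IVF library 3). Skeletal muscle actin, ACTA1, was spread widely within the IVF group, with 1.56 and 0.324 CPM in vivo and 167, 45.9 and 335 CPM after IVF (7.62 ± 1.26, adjusted p = 0.0038), and its counts may include reads of near-identical actins. CNN2, a calponin that binds actin, had 24.4 and 18.4 CPM in vivo and 172, 136 and 133 CPM after IVF (2.78 ± 0.43, adjusted p = 0.0024). The myosin light chain MYL9 had 14.5 and 23.7 CPM in vivo and 99.4, 82.1 and 96.9 CPM after IVF (2.28 ± 0.40, adjusted p = 0.0051). Tropomyosin TPM4 had 377 and 453 CPM in vivo and 996, 1311 and 1078 CPM after IVF (1.44 ± 0.25, adjusted p = 0.0052).

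Part of the protein-folding genes fell after IVF. Of 34 tested chaperones and sensors of the endoplasmic reticulum 13 fell (5 to 9 with 1 library left out, fewest without IVF library 3) and none rose (median -0.84). HSPA5 or BiP, the main chaperone there (gene 407060, chromosome 1, 265930044 to 265934959), had 4776 and 2672 CPM in vivo and 789, 1466 and 783 CPM after IVF, and the unnumbered library was the highest (log2 fold change -1.88 ± 0.36, adjusted p = 0.0082). HYOU1, a partner of BiP, had 54.3 and 76.1 CPM in vivo and 21.3, 17.2 and 13.7 CPM after IVF (-1.91 ± 0.32, adjusted p = 0.0038). CANX, which folds glycoproteins, had 825 and 1651 CPM in vivo and 417, 447 and 433 CPM after IVF (-1.52 ± 0.27, adjusted p = 0.0053, and -0.95 (adjusted p = 0.049) without in vivo library 2). The disulfide enzyme PDIA6 had 899.8 and 945 CPM in vivo and 395, 503 and 291 CPM after IVF (-1.22 ± 0.26, adjusted p = 0.012, lost without in vivo library 2 at -1.20 (adjusted p = 0.067)). Among 41 heat shock proteins of cytosol and mitochondria 8 fell (3 to 5 with 1 library left out, fewest without IVF library 1) and none rose (median -0.37). BAG3, a cofactor of HSP70 (gene 100156989, chromosome 14, 129510240 to 129533998), had 121 and 154 CPM in vivo and 19.1, 15.4 and 13.7 CPM after IVF (-3.1 ± 0.26, adjusted p = 0.00012), and the HSP70 gene HSP70.2 had 2661 and 3244 CPM in vivo and 393, 259.9 and 395 CPM after IVF (-3.08 ± 0.29, adjusted p = 0.00021). The HSP40 gene DNAJB1 had 1014 and 468 CPM in vivo and 108, 138 and 125 CPM after IVF (-2.58 ± 0.32, adjusted p = 0.00074). These 3 are inducible by heat and other stress, and each was several times higher in both in vivo libraries. The constitutive HSPA8 had 7448 and 7187 CPM in vivo and 3849, 4467 and 4075 CPM after IVF (-0.83 ± 0.22, adjusted p = 0.035). It lost its call with any 1 of the 5 libraries left out (log2 fold change of -0.91 to -0.78, adjusted p of 0.065 to 0.11).

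FOS and MYC fell, both in the list of FGF signalling and its feedback genes, most of which did not pass the test. FOS, part of the AP-1 factor, had 274 and 241 CPM in vivo and 24.4, 34.4 and 27.3 CPM after IVF (-3.17 ± 0.30, adjusted p = 0.00021), and MYC, which drives ribosome production (gene 448810, chromosome 4, 12455141 to 12460360), 33.9 and 44 CPM in vivo and 14.2, 9.34 and 7.79 CPM after IVF (-1.9 ± 0.33, adjusted p = 0.0049). In the nucleolus, where ribosomes are built, 18 of 39 tested genes fell (2 to 14 with 1 library left out, fewest without in vivo library 2) and none rose. Their median was -0.86. NOP14, needed for the small subunit, had 113 and 165 CPM in vivo and 56.2, 53.2 and 54.6 CPM after IVF (-1.35 ± 0.24, adjusted p = 0.0051). NOLC1, a phosphoprotein of the nucleolus, had 347 and 464 CPM in vivo and 169.5, 188 and 161 CPM after IVF (-1.23 ± 0.22, adjusted p = 0.006). Both lost their call without in vivo library 2, at -1.06 (adjusted p = 0.058) and -1.02 (adjusted p = 0.059). The ribosomal proteins themselves had 2 higher calls (1 to 6 with 1 library left out, fewest without in vivo 2, IVF 1 or IVF 3) and 2 lower ones (1 to 2 with 1 library left out, fewest without the unnumbered, in vivo 2, IVF 2 or IVF 3) of 82. Their median was 0.05, from -0.23 without in vivo library 2 to 0.42 without the unnumbered library. RPL13 was a lower one, with 598 and 470.1 CPM in vivo and 267, 281 and 209 CPM after IVF (-1.08 ± 0.21, adjusted p = 0.0091). Of 23 aminoacyl-tRNA synthetases 5 fell (1 to 3 with 1 library left out, fewest without in vivo 2 or IVF 3) with a median of -0.56, and of 41 splicing factors 7 fell (1 to 8 with 1 library left out, fewest without in vivo 2 or IVF 3) with a median of -0.56. None was higher in either list. SRSF6, a splicing regulator, had 167 and 139.6 CPM in vivo and 82.6, 68.6 and 69.4 CPM after IVF (-1.06 ± 0.21, adjusted p = 0.0096).

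Some DNA replication genes fell. In the list of mitotic genes given further down, 2.33% were called higher and 6.98% lower, against 6.96% and 4.88% of all genes tested. Of 41 tested genes of the replicative helicase and origin firing 10 fell (3 to 8 with 1 library left out, fewest without in vivo library 2) and none rose (median -0.60). MCM7, a subunit of the helicase (gene 110259871, chromosome 3, 8005890 to 8014047), had 592 and 466 CPM in vivo and 254, 232 and 235 CPM after IVF (-1.14 ± 0.18, adjusted p = 0.0026). MCM3 had 48.2 and 46.8 CPM in vivo and 17.8, 14.8 and 16.7 CPM after IVF (-1.53 ± 0.26, adjusted p = 0.004) and MCM4 172 and 192 CPM in vivo and 84.6, 89.2 and 85.2 CPM after IVF (-1.08 ± 0.19, adjusted p = 0.0051). The IVF libraries lay close together below both in vivo libraries. Cyclin E1, CCNE1, which starts replication, had 109 and 79.5 CPM in vivo and 31.2, 33.7 and 35.3 CPM after IVF (-1.49 ± 0.27, adjusted p = 0.006), while cyclin D1, CCND1, was low throughout with 0.793 and 0.199 CPM in vivo and 5.57, 7.13 and 4.11 CPM after IVF (3.5 ± 0.61, adjusted p = 0.0049). Mitotic kinases, cyclins and checkpoint genes had 1 higher and 3 lower calls (1 to 9 with 1 library left out, fewest without in vivo library 2) of 43 (median -0.16, from -0.27 without IVF library 3 to -0.08 without in vivo library 2). MSH6, which recognises mismatched bases, had 71.8 and 133 CPM in vivo and 30.3, 14.8 and 23.5 CPM after IVF (-2.16 ± 0.40, adjusted p = 0.0067, lost without in vivo library 2 at -1.66 (adjusted p = 0.076)), 1 of 5 lower calls (0 to 11 with 1 library left out, fewest without in vivo library 2) among 39 DNA repair genes.

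All 13 mitochondrial messages tested had a negative log2 fold change and 11 were called lower (2 to 11 with 1 library left out, fewest without in vivo library 2, median -2.01, but -0.96 without in vivo library 2). ND4, a subunit of complex I encoded in the mitochondrion (gene 808510, chromosome MT, 11359 to 12736 of the mitochondrial genome), had 4224 and 26546 CPM in vivo and 1662, 1762 and 2180.3 CPM after IVF (-3.04 ± 0.54, adjusted p = 0.0057). In vivo library 2 was several times above the unnumbered library, and without it the log2 fold change was -1.19 (adjusted p = 0.05). ND4L had 729 and 3515 CPM in vivo and 239, 262 and 285 CPM after IVF (-3.02 ± 0.50, adjusted p = 0.0039, and -1.49 (adjusted p = 0.032) without library 2). Cytochrome b, CYTB, had 1144 and 5119.6 CPM in vivo and 729.5, 387 and 609.7 CPM after IVF (-2.44 ± 0.47, adjusted p = 0.0081). ND2 had 444 and 1152 CPM in vivo and 229, 164 and 201 CPM after IVF (-2.01 ± 0.35, adjusted p = 0.0051) and ATP6, of the ATP synthase, 2260.3 and 10846 CPM in vivo and 1751, 1017 and 1603 CPM after IVF (-2.17 ± 0.48, adjusted p = 0.015). Their calls were lost without in vivo library 2, at -1.0 (adjusted p = 0.11), -1.18 (adjusted p = 0.055) and -0.65 (adjusted p = 0.31). ATP6 also lost its call without IVF library 2 at -1.99 (adjusted p = 0.052). COX3, of cytochrome oxidase, had 1542 and 4663 CPM in vivo and 1309, 547 and 1090.1 CPM after IVF (-1.66 ± 0.42, adjusted p = 0.026), lost without in vivo library 2 at -0.66 (adjusted p = 0.42), without IVF library 2 at -1.39 (adjusted p = 0.068) and without IVF library 3 at -1.74 (adjusted p = 0.065). As a share of all counts the messages made up 4.17% ± 3.79 (SD, n = 2) in vivo and 0.825% ± 0.195 (SD, n = 3) after IVF (exact permutation test, two-sided p = 0.2, the smallest that 2 against 3 libraries allow). Nuclear genes of the same machinery had no lower call: 5 of 66 respiratory chain subunits rose (0 to 14 with 1 library left out, fewest without in vivo library 2), with a median of 0.32, from 0.05 without in vivo library 2 to 0.62 without the unnumbered library, and 1 of 74 mitochondrial ribosomal proteins. These higher calls are 7.58% and 1.35% of the 2 nuclear lists, against 6.96% of all genes tested, so they are not above that share. A fit without the genes of the mitochondrial genome gave 1038 higher and 832 lower calls among 15493 genes tested.

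Enzymes of the citric acid cycle had 4 higher calls of 25 (1 to 4 with 1 library left out, fewest without in vivo 2, IVF 2 or IVF 3) and no lower one (median 0.24, but 0.14 without in vivo library 2 and 0.09 without IVF library 2). The cytosolic malate dehydrogenase MDH1 had 296 and 191 CPM in vivo and 1157, 1348 and 986 CPM after IVF (2.26 ± 0.28, adjusted p = 0.00077). Fatty acid oxidation had 7 higher (1 to 6 with 1 library left out, fewest without in vivo library 2) and 2 lower calls of 27 (median 0.14, from 0.03 without in vivo library 2 to 0.46 without the unnumbered library). ECI2, an isomerase for unsaturated fatty acids, had 22.9 and 13 CPM in vivo and 97.5, 101 and 75.9 CPM after IVF (2.35 ± 0.35, adjusted p = 0.0022). ACADVL, which starts the breakdown of long chains in mitochondria, had 234 and 198 CPM in vivo and 392, 491 and 455 CPM after IVF (1.05 ± 0.20, adjusted p = 0.0075, lost without in vivo library 2 at 0.92 (adjusted p = 0.072)). CPT1A, which admits long-chain fatty acids to mitochondria, was lower, with 25.6 and 34.9 CPM in vivo and 12.4, 6.3 and 7.5 CPM after IVF (-1.79 ± 0.35, adjusted p = 0.0082, lost without in vivo library 2 at -1.56 (adjusted p = 0.073)). RGN or regucalcin, an abundant calcium-binding protein, had 1305 and 1015 CPM in vivo and 2051, 3704 and 2002 CPM after IVF (1.16 ± 0.31, adjusted p = 0.035), with the highest value in IVF library 2. Omitting in vivo library 2 ended the call at 0.97 (adjusted p = 0.23), as did omitting the unnumbered library at 1.35 (adjusted p = 0.053) and IVF library 2 at 0.78 (adjusted p = 0.1). EGLN3, an oxygen sensor, had 6.06 and 14.2 CPM in vivo and 55.4, 64 and 81.4 CPM after IVF (2.72 ± 0.37, adjusted p = 0.0014) in a hypoxia list with 2 higher and 3 lower calls (1 to 3 with 1 library left out, fewest without IVF library 3) of 24.

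Signalling genes were called in both directions. Of 36 genes of Nodal, BMP and TGF-beta signalling 5 rose (2 to 4 with 1 library left out, fewest without in vivo library 2) and 8 fell (4 to 9 with 1 library left out, fewest without in vivo 2 or IVF 2). FSTL3, a secreted antagonist of activin, had 5.58 and 2.32 CPM in vivo and 38, 29.2 and 31 CPM after IVF (3.05 ± 0.44, adjusted p = 0.0017). Of 30 FGF signalling genes 1 rose and 6 fell (4 to 7 with 1 library left out, fewest without in vivo 2, IVF 1 or IVF 3). The ligand FGF19 had 12.4 and 3.99 CPM in vivo and 0.114, 0 and 0 CPM after IVF (-7.66 ± 1.59, adjusted p = 0.011), highest in the unnumbered library. FGFR4, a receptor for it, had 11.2 and 34.2 CPM in vivo and 2.7, 1.49 and 2.38 CPM after IVF (-3.37 ± 0.65, adjusted p = 0.008, lost without in vivo library 2 at -2.36 (adjusted p = 0.11)), whereas FGFR2, a receptor of epithelia and trophoblast, had 2.86 and 9.75 CPM in vivo and 39, 28.6 and 52.5 CPM after IVF (2.66 ± 0.48, adjusted p = 0.006). Of 35 WNT genes 2 rose and 5 fell (1 to 4 with 1 library left out, fewest without in vivo library 2), and the secreted DKK3 was a higher one with 2.75 and 1.55 CPM in vivo and 20, 18.3 and 50 CPM after IVF (3.78 ± 0.62, adjusted p = 0.0035). The cytokine IL6 had 0.793 and 1.82 CPM in vivo and 17.6, 33.9 and 30.1 CPM after IVF (4.37 ± 0.59, adjusted p = 0.0012). The STAT3 targets PIM1, a kinase, and SOCS1, a feedback inhibitor, were lower, with 28.2 and 32.3 CPM in vivo and 8.18, 5.42 and 3.19 CPM after IVF (-2.44 ± 0.44, adjusted p = 0.0057) and 6.43 and 4.11 CPM in vivo and 0.455, 1.02 and 0.595 CPM after IVF (-2.93 ± 0.60, adjusted p = 0.011). SOCS1 lost its call without the unnumbered library at -2.57 (adjusted p = 0.057). Interferon-related genes had 4 higher (2 to 5 with 1 library left out, fewest without in vivo 2 or IVF 2) and 3 lower calls (0 to 3 with 1 library left out, fewest without in vivo 2, IVF 1 or IVF 3) of 31. TAP1, which loads peptides for presentation, had 10.3 and 7.18 CPM in vivo and 73.1, 50.8 and 32.7 CPM after IVF (2.58 ± 0.40, adjusted p = 0.0025). IFITM3, an antiviral membrane protein with close copies in the genome, had 0.538 and 13.3 CPM in vivo and 0, 0.0553 and 0 CPM after IVF. With 2 counts in all in the IVF group the ratio of in vivo to IVF CPM was 398 (95% counting interval 109.7 to 3294, adjusted p = 0.028). The level rested on in vivo library 2, and the call was lost without it (adjusted p = 0.46) and without any 1 of the IVF libraries (adjusted p of 0.07 to 0.092).

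Chromatin and dosage lists are short, so their calls were few in number. Over all genes 6.96% were called higher and 4.88% lower. The shares were 2.38% and 4.76% for histone modifiers, and 0% and 10.5% for DNA methylation genes. For imprinted genes they were 9.52% and 0%. EZH2, which places the repressive mark on histone H3 lysine 27, had 97.7 and 110.0 CPM in vivo and 53.3, 52.1 and 46.1 CPM after IVF (-1.04 ± 0.20, adjusted p = 0.0077, lost without in vivo library 2 at -0.97 (adjusted p = 0.059)). The deacetylase SIRT2 had 71.8 and 77.8 CPM in vivo and 330.4, 399 and 290.2 CPM after IVF (2.18 ± 0.25, adjusted p = 0.00049). They were 2 of the 3 calls among 42 histone modifiers. DNA methylation genes had 2 lower calls of 19, DNMT3B among them. Of 21 genes imprinted in mammals 2 rose and none fell. SLC22A18, an organic cation transporter gene, had 0.822 and 1.27 CPM in vivo and 7.87, 7.79 and 6.28 CPM after IVF (2.8 ± 0.49, adjusted p = 0.0051), while the growth factor IGF2 was below 1 CPM in every library (0 and 0.922 CPM in vivo and 0.426, 0.276 and 0.947 CPM after IVF) and not called. On the X chromosome 52 of 563 genes rose and 19 fell (9.24% and 3.37%, median 0.33). With 1 library left out 15 to 47 rose and 5 to 24 fell, fewest on both sides without in vivo library 2, and the median was lowest, at 0.16, without IVF library 2. RLIM, the X-linked ubiquitin ligase that activates XIST, had 45.3 and 38.8 CPM in vivo and 9.04, 14.1 and 6.25 CPM after IVF (-2.1 ± 0.44, adjusted p = 0.012). Sexes of the pooled embryos were not given. Of 1339 tested long noncoding RNA genes 77 were called higher (5.75%) and 11 lower (0.822%), against 6.96% and 4.88% of all genes. Their share of higher calls was thus below that of all genes, and their share of lower calls was further below. Their median was 0.61, or 0.55 with genes at 0 set to their bound. Protein-coding genes had 996 higher (7.14%) and 741 lower calls (5.3%) of 13941 (median 0.00). With 1 library left out 21 to 80 long noncoding RNA genes were called higher and 1 to 8 lower, fewest without in vivo library 2, and 328 to 1069 and 161 to 896 protein-coding genes.

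Further genes are named here for the size of their change alone. GBX1, a homeobox factor (gene 100625616, chromosome 18, 6058888 to 6080908), had 0.623 and 1.25 CPM in vivo and 75.2, 61.1 and 92.6 CPM after IVF (6.34 ± 0.47, adjusted p = 4.9e-05). TBC1D16, a regulator of a RAB protein, had 0.312 and 0.449 CPM in vivo and 35.5, 22.6 and 40.8 CPM after IVF (6.42 ± 0.46, adjusted p = 4.9e-05). Both were near or below 1 CPM in vivo and high in all 3 IVF libraries. GGT6, of the gamma-glutamyltransferase family, had 0.312 and 0.474 CPM in vivo and 37.4, 21 and 35 CPM after IVF (6.29 ± 0.62, adjusted p = 0.00023). The mucin MUC12 had 0 and 0.0997 CPM in vivo and 5.14, 16.8 and 30.4 CPM after IVF (8.29 ± 1.15, adjusted p = 0.0014). PDE2A, which breaks down cyclic nucleotides, had 0.085 and 0.0249 CPM in vivo and 4.57, 2.6 and 8.47 CPM after IVF (6.51 ± 1.02, adjusted p = 0.0028). LY6G6C, a surface protein of the LY6 family, had 0.85 and 0 CPM in vivo and 39.3, 37.5 and 33.2 CPM after IVF (6.46 ± 0.86, adjusted p = 0.0011). The pantetheinase VNN2 had 0.113 and 0 CPM in vivo and 4.92, 4.92 and 9.23 CPM after IVF (6.79 ± 1.14, adjusted p = 0.0052). For both, the remaining in vivo library had no counts once the unnumbered one was left out, so that value has no fold. ACPP, an acid phosphatase, had no counts in vivo and 8.35, 8.29 and 12.3 CPM after IVF (at least 121-fold higher, adjusted p = 0.00056), and the uncharacterised C1H15orf52 none and 3.89, 3.37 and 8.25 CPM (at least 64.7-fold higher, adjusted p = 0.00044). On the lower side, the transcription factor SOX21 had 3.77 and 6.78 CPM in vivo and 0, 0 and 0.0541 CPM after IVF, a ratio of 291 with 2 counts in the IVF group (95% counting interval 80 to 2410.5, adjusted p = 0.01). The septin SEPT6 had 14.6 and 31.8 CPM in vivo and 0.227, 0 and 0.108 CPM after IVF (-7.66 ± 1.53, adjusted p = 0.0097). Carboxypeptidase N, CPN1, had 3.88 and 6.85 CPM in vivo, the cytochrome P450 CYP2C42 2.86 and 7.98 and the nucleotidase ENTPD1 2.3 and 8.3, all with no counts after IVF (at least 64.6-fold, 65.2-fold and 63.7-fold lower, adjusted p of 0.0071, 0.021 and 0.0094). Without in vivo library 2 these 5 genes lost their call, at adjusted p of 0.099 (SOX21), 0.077 (SEPT6), 0.086 (CPN1), 0.15 (CYP2C42) and 0.14 (ENTPD1). CYP2C42 also lost it without any 1 of the IVF libraries (adjusted p of 0.056 to 0.059).

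Marker lists of cells from outside the embryo were summed, and their levels differed from list to list. Of 17 blood and immune markers the summed level was 24.1 and 30.9 CPM in vivo and 269 to 297 CPM after IVF. ITGAM, a member of the list, had 3.43 and 13.3 CPM in vivo and 7.2, 4.3 and 9.1 CPM after IVF, with overlapping groups. The sum after IVF was made almost wholly by 2 other genes. AIF1, known from macrophages, had 1.67 and 3.54 CPM in vivo and 145, 126 and 152 CPM after IVF (5.75 ± 0.40, adjusted p = 4.9e-05). FCER1G, a signalling chain of Fc receptors, had 17.4 and 11.5 CPM in vivo and 122, 135 and 129.8 CPM after IVF (3.16 ± 0.35, adjusted p = 0.00046). The markers CD3D, CD3E and CSF1R had no counts in any of the 5 libraries, PTPRC, the pan-leukocyte marker, was at 0.06 CPM in the unnumbered in vivo library and 0 in the others, and CD14 was below 0.3 CPM. Oviduct and uterus markers summed to 2.64 to 3.71 CPM in vivo and 5.25 to 14.5 CPM after IVF, and stroma and vessel markers to 14.2 to 52.4 and 3.95 to 8.58 CPM. In the latter PECAM1, which embryonic cells can also express, led, and 6 of 16 markers had no counts. Cumulus and granulosa markers had the highest sum in vivo, 369.8 to 422 CPM, and 345 to 576 CPM after IVF, led by SERPINE2, CYP11A1 and STAR, with 5 of 15 at 0. Sperm markers summed to 74.4 to 147 and 98.9 to 121 CPM, with most of the latter from ODF2 and 9 of 15 at 0. Oocyte-derived messages had no call among 19 tested, against 11.8% of all genes called. What part other cells have in the gene lists above was not tested.

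The same difference between origins was measured in unhatched blastocysts (2 in vivo and 3 IVF libraries), and the change in it was tested as an interaction in the same fit. It passed for 732 of 15528 genes (4.71%): 433 had a more positive origin effect in hatched blastocysts (2.79%) and 299 a more negative one (1.93%). With 1 of the 10 libraries left out, 195 (without IVF blastocyst library 3) to 527 and 127 (without IVF hatched library 2) to 506 genes passed (without in vivo blastocyst library 2), and 200 and 167 without in vivo hatched library 2. The 6 single genes given below with a called difference passed with each of the 10 libraries left out. Of the 1081 genes called higher in hatched blastocysts, 257 were called higher and 29 lower in blastocysts, where 945 genes were higher in all. Of the 758 called lower, 115 were lower and 21 higher there, of 736 lower in blastocysts. The test of the difference passed for 303 of the 1081 in the direction of the hatched effect and for 126 of the 758. These genes were chosen by their hatched effect, which is part of the difference tested. The choice itself favours that direction, so these counts are no separate support for an effect particular to hatched blastocysts. Antioxidant genes had 10 more positive differences of 34 (7 to 11 with 1 of the 10 libraries left out) and no negative one. FTH1 is an example: its log2 fold change was -1.48 in blastocysts and 1.3 ± 0.26 in hatched blastocysts (difference 2.78 ± 0.36, adjusted p = 0.0034). For PHGDH the pair was -0.92 and 3.55 ± 0.47 (difference 4.47 ± 0.60, adjusted p = 0.0043), and for TYMS -0.19 and 2.21 ± 0.18 (2.40 ± 0.24, adjusted p = 0.0015). Citric acid cycle enzymes had 7 more positive differences and 1 more negative of 25, but the 7 fell to 0 in 6 of the 10 omissions. Basement membrane genes had 5 more negative differences of 27 (3 to 9 with 1 of the 10 libraries left out): COL4A2 was at 1.87 in blastocysts and -4.12 ± 0.44 after hatching (-5.99 ± 0.65, adjusted p = 0.0015). DNMT3B went from 1.60 to -3.53 ± 0.54 (-5.13 ± 0.80, adjusted p = 0.0078), and CCNE1 from 0.95 to -1.49 ± 0.27 (-2.44 ± 0.39, adjusted p = 0.009), in a list of mitotic genes with 8 more negative differences (3 to 7 with 1 of the 10 libraries left out) and 1 more positive of 43. Endoplasmic reticulum chaperones and mitochondrial messages had 1 and no such difference, and 4 each without the unnumbered hatched library. HSPA5 was at -2.13 and -1.88 ± 0.36 (difference 0.25 ± 0.52, adjusted p = 0.84), and ND4 at -3.30 and -3.04 ± 0.54 (0.26 ± 0.76, adjusted p = 0.9). TDGF1 was at 3.18 and 2.19 ± 0.31 (-0.99 ± 0.41, adjusted p = 0.18).

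**Figure D4:**
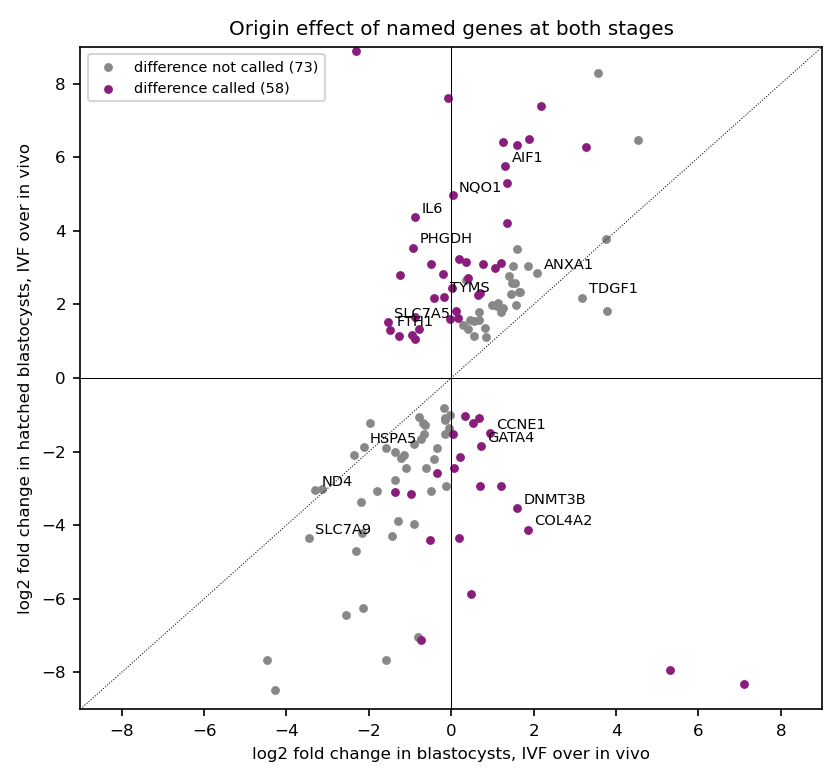
Log2 fold change of IVF over in vivo in blastocysts (horizontal) and in hatched blastocysts (vertical) for the 131 called genes of the text within 9 log2 units, with the dotted line at equal effects. Purple points are the 58 genes for which the difference between stages was called. FTH1, PHGDH and SLC7A5 lie above 0 on the vertical axis and below 0 on the horizontal axis, and COL4A2 and DNMT3B the other way round.

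**Figure D5:**
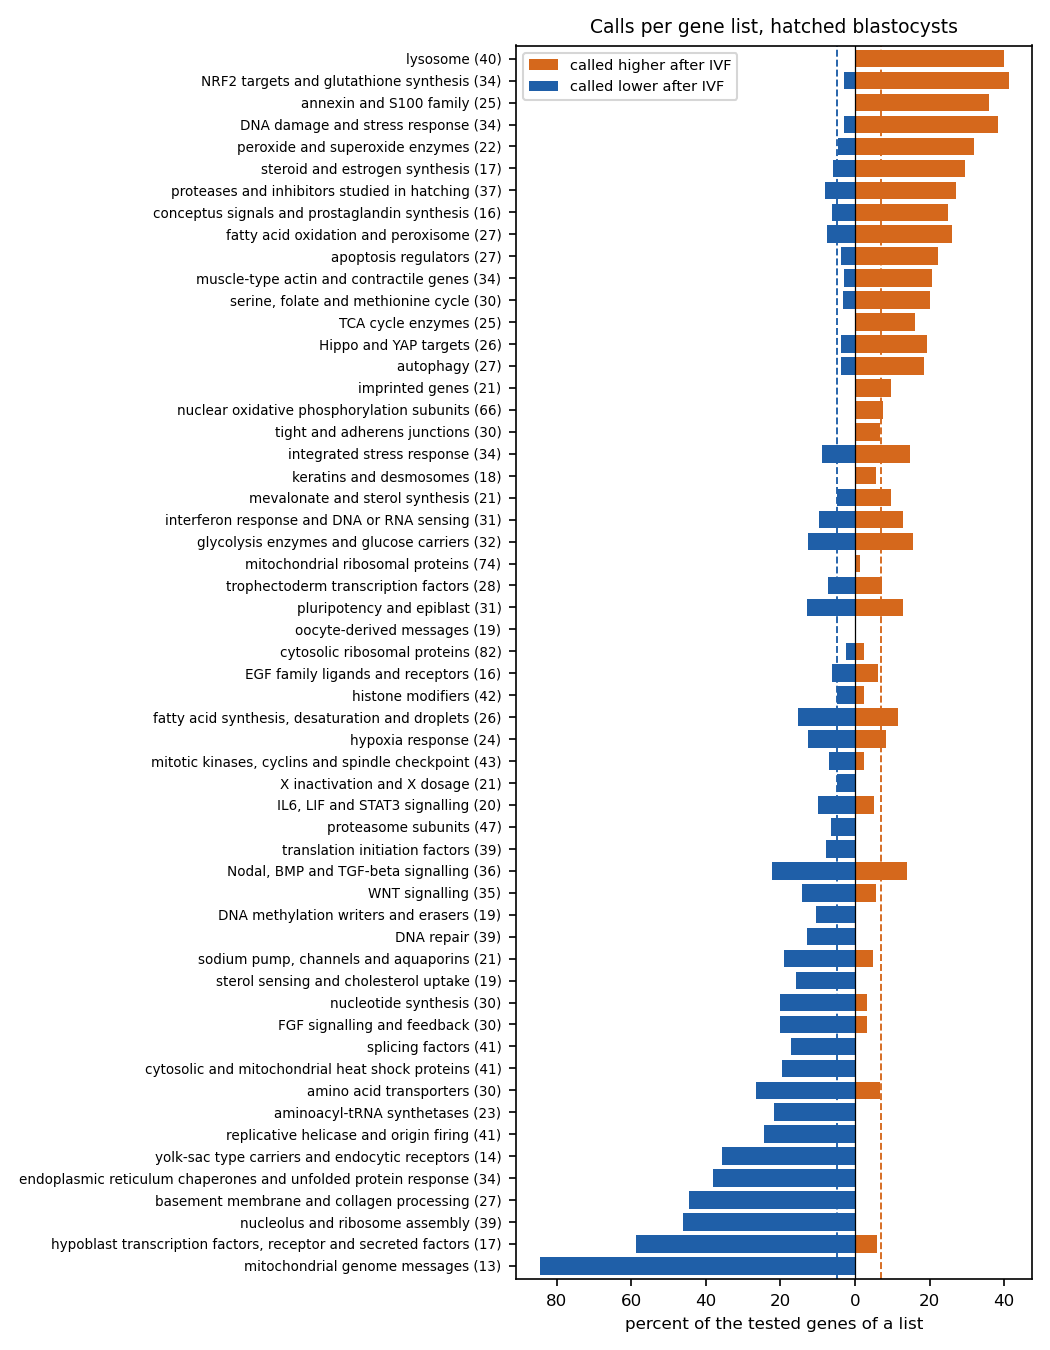
Percent of the tested genes of each list called higher (orange, to the right) or lower (blue, to the left) after IVF in hatched blastocysts, with the number tested in brackets and the shares over all genes, 6.96% and 4.88%, as dashed lines. Lysosome, NRF2 and DNA damage lists extend far to the right, and mitochondrial messages, hypoblast, nucleolus and basement membrane lists far to the left.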

How the data were processed

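Per the labels' protocols, total RNA of pooled embryos was extracted with TRIzol, polyadenylated RNA was enriched, and libraries were read in pairs on an Illumina HiSeq. The authors deposited 1 table of whole-number read counts, FPKM and TPM per gene on Sscrofa11.1. The counts were used as deposited, not normalised, and levels are not compared between genes. Tools listed in the submitters' processing notes, without their roles, are HISAT2, Bowtie2, RSEM, StringTie 1.3.1 and fastp 0.18.0. Strand use and the treatment of reads shared between genes are not given in the sources used here. Of 39 value columns 26 (FPKM and TPM) were not used. Of 28232 genes 28208 matched a RefSeq table of the same build, the source of positions. The 24 others, mitochondrial rRNAs and tRNAs, held 0.0171% to 0.112% of the counts of a library.

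The 10 blastocyst and hatched libraries were fitted together in edgeR 4.0.16 (R 4.3.3; TMM factors, filterByExpr, quasi-likelihood test, Benjamini-Hochberg adjustment), with origin and stage as groups, and scripts were tested on simulated counts. A gene with 0 counts in a group is given as a bound against 3 counts in each library. Intervals and floors cover counting error only. Replicate pairs differed by more than sampling noise and were kept apart.

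The named genes were, on each side, the 12 called genes with the largest fold (at least 5 CPM, ranges apart) and the 8 with the highest level, the 4 called members of each of 61 lists with the smallest p, of which some are left to counts, and 14 fixed genes. Some genes under this rule are not reported here. The comparison, the lists and the rule were chosen with earlier results of these data known. Alternatives were DESeq2 1.42.0, RLE scaling, scaling by totals, a fit without the genes of the mitochondrial genome, other filters and thresholds, other sets of libraries, and each library left out.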

Additional observations from a re-analysis of the deposited data

Results flagged for a closer look

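For 64 named genes the effect of IVF in hatched blastocysts differed from that in unhatched blastocysts in the interaction test of edgeR (adjusted p under 0.05, against 4.71% of all genes). The values are the log2 difference between both effects, hatched minus unhatched, and they share the hatched libraries with the report. Named genes were mostly chosen by their hatched call, which favours a called difference, so their number cannot be weighed against the share of all genes.

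The difference was positive, with a negative fitted effect in unhatched blastocysts, for ACTA1 7.70, RGN 2.41, FTH1 2.78, ACADVL 1.93, MSX2 2.12, GPX1 2.11, SLC7A5 3.06, PRDX3 1.63, OPTN 2.54, SIRT2 2.59, TYMS 2.40, SLC22A18 4.05, ARSA 3.02, GSTA4 3.58, PHGDH 4.47, IL6 5.25, CYP19A3 11.22 and PAG6 11.26. These genes were higher after IVF in hatched blastocysts and on the opposite side of 0, called or not, before hatching. Here and below, genes were sorted by the sign of the fitted unhatched effect alone. Some of these effects, such as that of PRDX3, lay near 0, so a reversal is not shown for each gene.

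A larger positive effect in hatched blastocysts, with an effect of the same sign before hatching, was found for GGT6 3.03, GBX1 4.74, TBC1D16 5.15, PDE2A 4.63, PPAG3 5.21, C1H15orf52 7.74, ACPP 8.12, TMPRSS13 9.10, GSS 1.47, TJP3 1.70, MDH1 1.61, CTH 1.62, DPPA5 2.42, EGLN3 2.32, PHLDA3 1.93, SLC19A1 2.33, ZMAT3 1.91, FCER1G 2.81, CDKN1A 3.04, MGST1 2.85, NQO1 4.93, SLC2A12 3.93 and AIF1 4.44.

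The difference was negative, with a positive fitted effect in unhatched blastocysts, for JAM3 -12.06, ENTPD1 -13.79, SOX21 -13.23, IFITM3 -15.43, COL18A1 -6.36, COL4A2 -5.99, APOC3 -3.62, SCARB1 -4.14, PIM1 -2.50, MSH6 -2.36, SLC2A1 -1.55, CCNE1 -2.44, PKM -1.75, MCM4 -1.75, EZH2 -1.38, SOX17 -4.54, DNMT3B -5.13 and GATA4 -2.58. Among them are the collagen gene COL4A2, the DNA methyltransferase DNMT3B and the lipoprotein receptor SCARB1.

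For CDH2 -6.39, SERPINH1 -3.88, FOS -2.19, BAG3 -1.73 and DNAJB1 -2.23 the effect was negative at both stages and more so after hatching. JAM3, ENTPD1, C1H15orf52, ACPP, TMPRSS13, CYP19A3 and PAG6 had no counts in 1 group of hatched blastocysts, and SOX21 and IFITM3 had 2 counts in 1 group, so the size of their fitted difference depends on the small count added by the fit.

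With each of the 10 libraries left out in turn, 32 of the 64 differences kept their call. The call was lost in 5 to 9 omissions for APOC3, BAG3, CDH2, CTH, CYP19A3, ENTPD1, EZH2, GGT6, IFITM3, JAM3, MDH1, MSH6, PDE2A, PIM1, PPAG3, PRDX3, SLC2A1, SOX17, TJP3 and ZMAT3, and in 1 to 3 for ACPP, ACTA1, DNAJB1, EGLN3, GATA4, GSS, PAG6, PKM, SLC19A1, SLC2A12, SOX21 and TMPRSS13. Among these omissions the highest adjusted p was 0.9999 for ENTPD1, 0.197 for IFITM3 and 0.174 for CDH2.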

How the results depend on the processing

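The number of genes called in hatched blastocysts (1839, of which 1081 higher and 758 lower) moved with the tool and the design more than with the scaling. DESeq2 called 2988 (1683 higher, 1305 lower) and no filter on low counts 2850, with 1251 lower. A test against a fold of 1.5 called 814 (546, 268), an adjusted p under 0.01 called 569 (383, 186), and a fit of all 13 libraries 92 (64, 28). With 1 of the 10 libraries left out the calls were 513 to 2074 in all, 351 to 1216 higher and 162 to 910 lower. An arm left with 1 library was assumed to vary like the other groups. For the difference between stages (732, of which 433 more positive and 299 more negative) DESeq2 called 1879 (989, 890), no filter 1855 (947, 908), the test against a fold of 1.5 316 (188, 128) and the fit of 13 libraries 1 (1, 0). With 1 library left out 333 to 969, 195 to 527 and 127 to 506 passed. Of the 64 named genes with a called difference, 32 kept it with each library left out and 28 lost it without in vivo hatched library 2. Of the 143 named genes called between origins, 100 kept the call without each hatched library and 43 lost it without some. In the fit of all 13 libraries 25 of the 143 kept it and 118 lost it, against 140 kept under DESeq2 and 126 in the test against a fold of 1.5.

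The share of mitochondrial messages differed by -3.34 percentage points, and by -6.02 to -0.665 with 1 library left out. Among genes not called, GATA6 changed sign with scaling by totals (-0.0101). With 1 library left out GATA6 lay at -0.292 to 0.569, CDX2 at -0.292 to 0.790 and IGF2 at -0.741 to 0.543. IGF2 has no fold without in vivo library 2, because the other in vivo library has no count of it. The same holds for SOX21, FGF19, LY6G6C, VNN2, MUC12 and IFITM3 without the library that held the counts of a group. The cause was not tested, except that leaving out libraries reduces the samples and a stricter test the calls by construction. Medians over all genes lay between -0.03 and 0.04 under the scalings tried.

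The mitochondrial share of the deposited FPKM was not computed, because the in vivo column without a number cannot be tied to an FPKM column. No paired analysis was possible because the hatched groups compared share only the number 2, the other in vivo column carrying none. Depth limits what can be said of genes near 3 counts, 0.0776 to 0.0854 CPM in the hatched libraries. The in vivo group has 2 libraries, and 43 of 143 named calls were lost without some hatched library. Such a loss need not mean that a call rested on the library left out, because each omission also reduces the samples. HSPA8 lost its call whichever hatched library was left out, while its log2 fold change stayed at -0.91 to -0.78.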

Other observations

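Further lists had calls in hatched blastocysts that the text above does not describe. Of 30 genes of nucleotide synthesis 6 fell (1 to 5 with 1 library left out, fewest without in vivo library 2), among them enzymes that build purines and pyrimidines, and TYMS alone rose. Of 21 genes for the sodium pump, ion channels and aquaporins that fill the cavity 4 fell (0 to 3 with 1 library left out, fewest without in vivo library 2) and 1 rose. Hippo and YAP targets and cofactors had 5 higher calls (2 to 4 with 1 library left out, fewest without IVF library 2) and 1 lower of 26, and conceptus signals and prostaglandin enzymes 4 higher (1 to 4 with 1 library left out, fewest without in vivo library 2) and 1 lower of 16.

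Fatty acid synthesis, desaturation and droplet genes had 3 higher (1 to 3 with 1 library left out, fewest without in vivo library 2) and 4 lower calls (1 to 4 with 1 library left out, fewest without in vivo library 2) of 26. Proteasome subunits had 3 lower calls (0 to 2 with 1 library left out, fewest without in vivo 2, IVF 1 or IVF 3) of 47, translation initiation factors 3 lower (0 to 3 with 1 library left out, fewest without in vivo library 2) of 39, EGF family ligands and receptors 1 higher and 1 lower of 16, IL6, LIF and STAT3 signalling 1 higher and 2 lower of 20, and genes of X inactivation and dosage 1 lower of 21. All these shares stand against 6.96% of genes called higher and 4.88% called lower.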
